A study of Mus musculus with 8 samples.

Results

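Gpnmb, Mmp12, Trem2, Tyrobp, Cd9, Fabp5, Lgals3, Atp6v0d2 and Capg are genes that lipid- and scar-associated macrophages express at high levels. These 9 genes were chosen by their symbols from the 19642 genes with counts in the livers examined here, and some of them were picked because their levels were higher in livers lacking NgBR in this same comparison. The N-LKO against WT difference of each of the 9 genes is therefore given as a description, with no p-value. RNA from whole liver was sequenced after removal of rRNA in 4 WT and 4 N-LKO mice kept on chow diet (CD), with 1 library per mouse. N-LKO mice lack NgBR, the protein encoded by Nus1, in the liver. They carry loxP-flanked NgBR alleles and Cre recombinase driven by the albumin promoter, which is active in hepatocytes, so Nus1 is left intact in liver macrophages. All strains were on the C57BL6 background, and the study used male mice matched for age. The ages, and whether the WT mice carried the floxed allele or Cre, are not given in the sources used here. The sample titles, the series' design text and the study's supplement put these mice on CD for 8 weeks, whereas the treatment labels of the samples read 16 weeks.

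Macrophages that take up lipid and dead cells in fatty liver, obese adipose tissue and atherosclerotic plaque acquire a shared expression program. Its centre is TREM2, a receptor for lipids and lipoproteins that signals through the adaptor DAP12, the product of Tyrobp, and its other genes serve lysosomal digestion, lipid transport, matrix breakdown and cell adhesion. In the healthy liver most macrophages are resident Kupffer cells, in which much of this program is expressed at low levels.

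The total count per liver ranged from 14688404 to 18585412, so a gene with 3 counts stood at the limit of what these libraries can show. Nus1 was at 88.2 ± 4.14 in WT against 36.7 ± 2.57 CPM in N-LKO livers (SD, n = 4 each), where CPM are counts scaled to the normalized size of each library. Its counts were 1428 to 1625 in WT and 548 to 588 in N-LKO livers, in the direction of the genotype labels. Over the 14214 genes with enough counts to be tested, edgeR's quasi-likelihood test called 148 genes at an adjusted p under 0.05, of which 117 were higher and 31 lower in N-LKO livers (1.04% of the genes tested in all).

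The 3 genes with the lowest counts in WT livers, Gpnmb, Mmp12 and Trem2, also had the widest difference between genotypes, and the sequence before the start of each gene is shown for orientation. The sequences are the 150 bases upstream of the annotated gene start, read 5′ to 3′ on the gene's own strand, from RefSeq windows of build GRCm38.p6. Capitals mark matches to the core motifs of 2 factor families of macrophages, AP-1 (TGANTCA) and PU.1 (GAGGAAG, or CTTCCTC on the other strand). The Gpnmb stretch is chr6:49036396-49036545 on the plus strand, and its last 28 bases lie downstream of the start that RefSeq gives. The Mmp12 stretch is chr9:7344231-7344380 and the Trem2 stretch chr17:48346251-48346400, both on the plus strand.
Gpnmb: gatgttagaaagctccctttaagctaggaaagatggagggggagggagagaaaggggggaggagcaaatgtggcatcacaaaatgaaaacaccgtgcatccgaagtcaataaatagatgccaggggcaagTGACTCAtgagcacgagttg
Mmp12: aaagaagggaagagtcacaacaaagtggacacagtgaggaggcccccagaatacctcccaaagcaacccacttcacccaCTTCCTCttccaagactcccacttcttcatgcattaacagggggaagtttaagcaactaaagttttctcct
Trem2: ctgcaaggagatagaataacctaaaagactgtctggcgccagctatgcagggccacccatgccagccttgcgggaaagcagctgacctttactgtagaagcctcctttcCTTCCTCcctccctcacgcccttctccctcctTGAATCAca

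The AP-1 match of Gpnmb lies 20 to 14 bases before the annotated gene start. Counted from the start that RefSeq gives, it begins at base +9 and so lies downstream of that start. The PU.1 match of Mmp12 lies 71 to 65 bases before its start. Trem2 holds both, with PU.1 at 41 to 35 bases and AP-1 at 9 to 3 bases before its start. Such short motifs are common. Among all 32851 RefSeq windows of 300 bases (250 before and 50 after a start), 7.81% held the AP-1 motif and 13.6% the PU.1 motif on either strand. The search also covered CACGTG (7.15% of windows) and TCATGTG (3.77%), the letters that MITF and its relatives bind. RefSeq windows were matched for 6 of the 9 genes, 7 windows in all, since Mmp12 has a further start. CACGTG was in none of the 7 windows. The second Mmp12 window held AP-1 and TCATGTG matches, and the windows of Cd9, Lgals3 and Capg held no match to any of the 4 motifs. Tyrobp, Fabp5 and Atp6v0d2 were not matched to a window. A match describes the letters present and is not evidence of binding.

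Of the 9 genes, Gpnmb, Mmp12, Trem2 and Lgals3 were higher in every N-LKO liver than in every WT liver. The other 5, namely Tyrobp, Cd9, Fabp5, Atp6v0d2 and Capg, overlapped between genotypes. Higher N-LKO values without overlap were seen in 4.2% of all genes tested (597 of 14214), and values without overlap in either direction in 7.52%. Nothing is read from these shares, because the comparison itself helped to choose the genes. The filter on low counts was passed by 8 of the 9 genes, Gpnmb and Mmp12 only through their N-LKO counts, and Trem2 did not pass it.

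**Figure D1:**
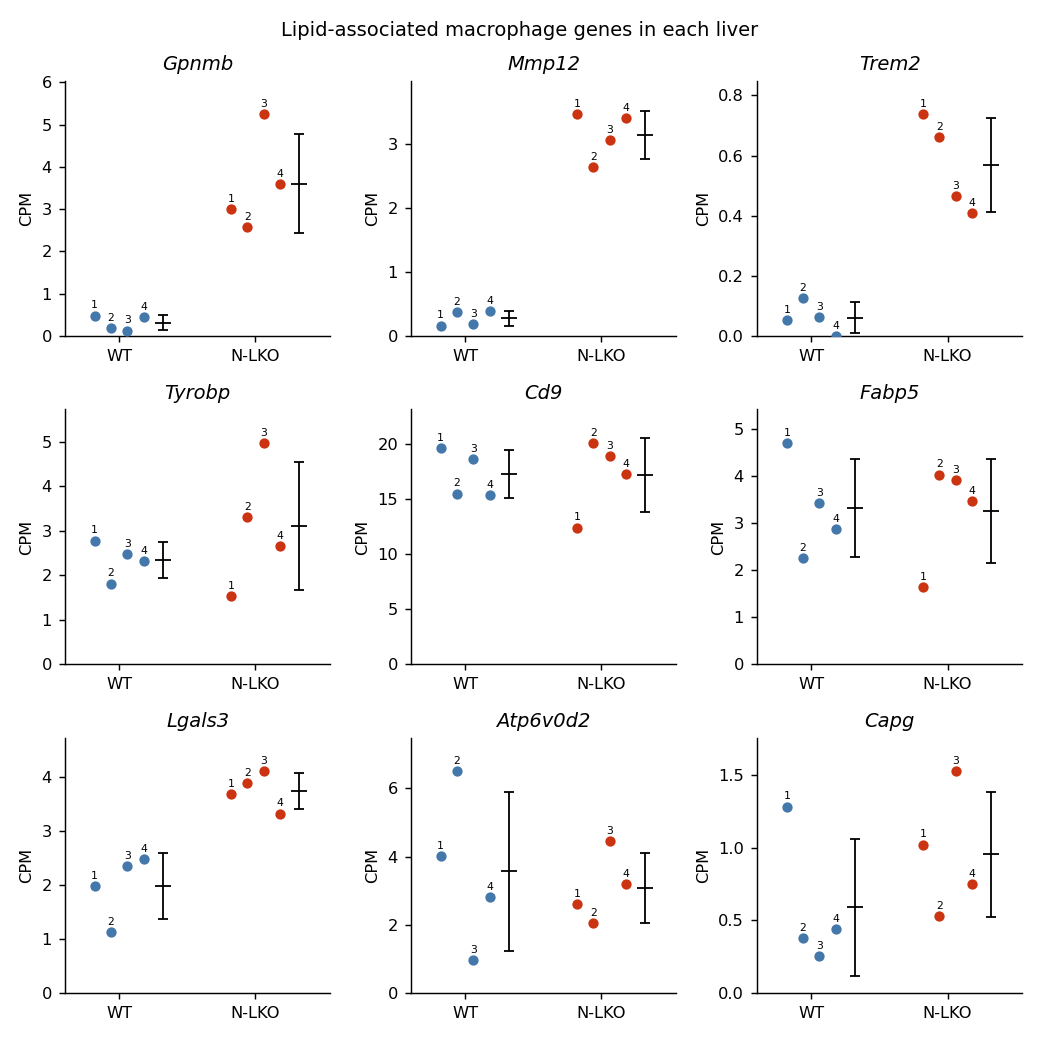
Level of each gene in each liver, in CPM (linear axis from 0). Points are single livers numbered by replicate, blue for WT and red for N-LKO, with the group mean and SD (n = 4) as a bar beside them. The red points sit above all blue points for Gpnmb, Mmp12, Trem2 and Lgals3 and are interleaved with them in the other 5 panels.

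Trem2 (ENSMUSG00000023992.14, chromosome 17, 48346401 to 48354147, plus strand) encodes the lipid receptor itself. It had 1, 2, 1 and 0 counts in WT livers 1 to 4. In N-LKO livers 1 to 4 it had 13, 10, 7 and 6 counts. All WT livers were thus below the limit of 3 counts that a count of 0 allows, and the lowest N-LKO liver was at 2 times that limit. On average Trem2 stood at 0.0605 ± 0.0513 in WT against 0.567 ± 0.157 CPM in N-LKO livers (SD, n = 4 each). Summed over livers and divided by depth, the 36 N-LKO counts against 4 WT counts gave a ratio of 9.86 (95% exact conditional interval 3.54 to 38.2). That interval covers counting error only, since it pools the livers of a genotype and leaves out the spread between mice. It also treats reads as independent molecules, which reads without molecular identifiers need not be. Such intervals are given for Gpnmb, Mmp12, Trem2 and Lgals3 alone, as a description, and no test is read from them. No log2 fold change from the filtered fit exists for Trem2, and in a fit without a filter it was 3.12.

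Tyrobp (ENSMUSG00000030579.10, chromosome 7, 30413760 to 30417585, plus strand) encodes DAP12, which TREM2 needs for signalling and which many other myeloid receptors share. Its counts were 52, 29, 39 and 42 in WT livers 1 to 4. In N-LKO livers 1 to 4 they were 27, 50, 75 and 39. The lowest and the highest Tyrobp values of all 8 livers were both in N-LKO livers, 1 and 3. The mean was 2.35 ± 0.403 in WT against 3.11 ± 1.44 CPM in N-LKO livers (SD, n = 4 each), a log2 fold change of 0.40 (standard error 0.312). Leaving out N-LKO liver 3 brought it to 0.074 and leaving out N-LKO liver 1 to 0.63. The separation of the genotypes seen for Trem2 was not seen for its adaptor.

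The genes that act with the receptor showed no called difference. Of 13 other TREM2-DAP12 signalling genes with counts, 11 were tested and 0 were called by edgeR's quasi-likelihood test (0 at an unadjusted p under 0.05). DESeq2 called 0 of them too. Their median log2 fold change was -0.055, against -0.0033 over all genes tested. Adam10, a protease that sheds TREM2 from the cell surface, was at 40.5 ± 2.33 in WT against 41.1 ± 4.24 CPM in N-LKO livers (SD, n = 4 each). Vav2, a guanine nucleotide exchange factor, was at 29.6 ± 2.57 and 29.8 ± 2.47 CPM (SD, n = 4 each). Grb2, an adaptor, was at 37.4 ± 1.05 and 39.5 ± 1.81 CPM (SD, n = 4 each). Of the other receptors that couple to DAP12, 4 were tested and 0 were called by edgeR (1 at an unadjusted p under 0.05, 0 called by DESeq2).

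Gpnmb (ENSMUSG00000029816.10, chromosome 6, 49036546 to 49070929, plus strand) encodes a transmembrane glycoprotein of lysosomes and the cell surface that lipid-laden macrophages express strongly. It had 9, 3, 2 and 8 counts in WT livers 1 to 4. It had 53, 39, 79 and 53 counts in N-LKO livers 1 to 4. The N-LKO liver with the fewest counts had over 4 times as many as the WT liver with the most. Mean levels were 0.309 ± 0.178 in WT against 3.60 ± 1.17 CPM in N-LKO livers (SD, n = 4 each). The log2 fold change was 3.47 (standard error 0.379), and the ratio of the 224 N-LKO to the 22 WT counts was 11.2 (95% exact conditional interval 7.19 to 18.2, counting error only). Leaving out any 1 liver gave log2 fold changes of 3.23 to 3.76. The genotypes did not overlap.

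Relatives and binding partners of GPNMB were not called by the test. Sdc4, a heparan sulfate proteoglycan that binds GPNMB, was at 385 ± 118 in WT against 329 ± 90.4 CPM in N-LKO livers (SD, n = 4 each). Cd44, a hyaluronan receptor, was at 10.5 ± 3.40 and 10.9 ± 3.18 CPM (SD, n = 4 each). Itgb1, an integrin subunit, was at 204 ± 14.3 and 222 ± 3.62 CPM (SD, n = 4 each). Of the 3 tested, 0 were called by edgeR (0 at an unadjusted p under 0.05, 0 called by DESeq2). Pmel, the closest relative of Gpnmb, had 9, 1, 4 and 5 counts in WT and 3, 3, 1 and 2 counts in N-LKO livers, and so did not follow Gpnmb.

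Atp6v0d2 (ENSMUSG00000028238.6, chromosome 4, 19876841 to 19922605, minus strand) encodes a subunit of the proton pump of lysosomes that macrophages and osteoclasts use. Its counts were 75, 104, 15 and 51 in WT livers 1 to 4. In N-LKO livers 1 to 4 they were 46, 31, 67 and 47. WT livers 2 and 3 were the highest and the lowest of all 8. Mean levels were 3.57 ± 2.33 in WT against 3.07 ± 1.03 CPM in N-LKO livers (SD, n = 4 each). The log2 fold change of -0.22 (standard error 0.442) was smaller than its error, and it went from -0.53 without WT liver 3 to 0.22 without WT liver 2. Of 17 other V-ATPase subunits and accessory proteins, 0 were called by edgeR (0 at an unadjusted p under 0.05, 0 called by DESeq2), with a median log2 fold change of -0.0087. Atp6v0c, the proteolipid ring subunit, was at 77.0 ± 2.89 and 73.3 ± 3.59 CPM (SD, n = 4 each) in WT and N-LKO livers. Atp6v1e1, a stalk subunit, was at 55.2 ± 3.18 and 53.3 ± 4.65 CPM (SD, n = 4 each).

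The transcription factors of the MiT/TFE family, which drive lysosomal genes and Gpnmb in other settings, were tested as 4 genes. None was called by edgeR (1 at an unadjusted p under 0.05, 0 called by DESeq2), and all 4 log2 fold changes were below 0 with a median of -0.15. Tfe3 was at 20.6 ± 1.37 in WT against 18.1 ± 2.09 CPM in N-LKO livers (SD, n = 4 each). Mitf was at 5.31 ± 0.298 and 5.06 ± 0.316 CPM (SD, n = 4 each). Of 10 osteoclast and cell fusion genes with counts, 7 were tested and 0 were called by edgeR (1 at an unadjusted p under 0.05, 0 called by DESeq2). Ctsk, Oscar and Mmp9, named here after their values were seen, had too few counts to be tested. Ctsk was higher without overlap, with 4, 4, 4 and 7 counts in WT and 10, 10, 18 and 11 in N-LKO livers. Oscar was lower without overlap, with 3, 3, 3 and 3 against 0, 2, 0 and 0 counts, and Mmp9 overlapped.

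Mmp12 (ENSMUSG00000049723.14, chromosome 9, 7344381 to 7369499, plus strand) encodes macrophage elastase, which degrades elastin. It had 3, 6, 3 and 7 counts in WT livers 1 to 4. It had 61, 40, 46 and 50 counts in N-LKO livers 1 to 4. The 4 N-LKO livers lay close together, with a coefficient of variation of 12.0% against 42.9% in WT livers. Mean levels were 0.278 ± 0.119 in WT against 3.14 ± 0.376 CPM in N-LKO livers (SD, n = 4 each). The log2 fold change was 3.47 (standard error 0.291), with 3.26 to 3.67 when each liver was left out. The ratio of 197 to 19 counts was 11.4 (95% exact conditional interval 7.09 to 19.3, counting error only). Mmp12 overlaps Mmp1b on the minus strand, and whether the counting used strand is not stated, so reads of the pair cannot be told apart.

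Some other metalloproteinases and inhibitors rose as well. Of the 7 tested, 4 passed upward by edgeR's test and 0 fell, with a median log2 fold change of 0.80. Mmp2, a gelatinase made mainly by mesenchymal cells, rose from 1.18 ± 0.355 to 4.33 ± 1.28 CPM (SD, n = 4 each, log2 fold change 1.85, edgeR adjusted p = 0.0109). Mmp23 rose from 0.250 ± 0.0966 to 1.01 ± 0.225 CPM (SD, n = 4 each, log2 fold change 1.99, edgeR adjusted p = 0.0233), a call kept only without N-LKO liver 1 or WT liver 2 among the 8 fits that left out a liver (highest adjusted p 0.0836). Mmp23 had 3, 6, 3 and 5 counts in WT livers and passed the filter on low counts only through its N-LKO counts. Its call is therefore given as a description. The inhibitors Timp2 and Timp3 rose by 1.28 and 0.80 on the log2 scale (edgeR adjusted p = 0.00162 and 0.0102). Mmp14, Mmp15 and Mmp19 were not called. Within the group of metalloproteinases with too few counts to be tested, Mmp13 had 0, 0, 0 and 3 counts in WT and 0, 6, 8 and 1 counts in N-LKO livers. Mmp3 had 1, 3, 0 and 0 against 0, 3, 4 and 1 counts, and Mmp8 had 4, 1, 0 and 0 against 3, 3, 1 and 2 counts. Mmp7, a matrilysin of epithelia, did not overlap between genotypes, with 1, 0, 4 and 4 counts in WT and 10, 16, 41 and 24 in N-LKO livers. Mmp3, Mmp7, Mmp8 and Mmp13 were named after their values were seen.

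Lgals3 (ENSMUSG00000050335.17, chromosome 14, 47367751 to 47386160, plus strand) encodes galectin-3, a sugar-binding protein secreted by macrophages that also marks damaged lysosomes. Its counts were 37, 18, 37 and 45 in WT livers 1 to 4. In N-LKO livers 1 to 4 they were 65, 59, 62 and 49. The gap between the highest WT and the lowest N-LKO liver was narrow, at 2.48 against 3.33 CPM. Mean levels were 1.98 ± 0.610 in WT against 3.76 ± 0.335 CPM in N-LKO livers (SD, n = 4 each). The log2 fold change was 0.91 (standard error 0.226), and the ratio of counts was 1.88 (95% exact conditional interval 1.52 to 2.34, counting error only). Of 5 other galectins and galectin ligands, 0 were called by edgeR (1 at an unadjusted p under 0.05, 0 called by DESeq2), and their median log2 fold change was -0.17. Lgals9, an abundant liver galectin, was at 289 ± 17.3 in WT against 253 ± 17.3 CPM in N-LKO livers (SD, n = 4 each).

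Cd9 (ENSMUSG00000030342.8, chromosome 6, 125460266 to 125494791, minus strand) encodes a tetraspanin that marks lipid- and scar-associated macrophages and that many other cells also express. It had 368, 248, 294 and 279 counts in WT livers 1 to 4. It had 219, 305, 285 and 255 counts in N-LKO livers 1 to 4. The genotypes overlapped, and N-LKO liver 1 was the lowest of the 8. Mean levels were 17.3 ± 2.18 in WT against 17.2 ± 3.39 CPM in N-LKO livers (SD, n = 4 each), a log2 fold change of -0.012 (standard error 0.149). Cd9 overlaps 2 plus-strand genes, Gm28809 and Gm26728, so its counts are uncertain to that extent. Of 12 other tetraspanins, 0 were called by edgeR (3 at an unadjusted p under 0.05, 0 called by DESeq2), with a median log2 fold change of 0.10.

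Fabp5 (ENSMUSG00000027533.10, chromosome 3, 10012548 to 10016607, plus strand) encodes a fatty acid-binding protein of macrophages and other cells. Its estimated counts were 88.4, 35.9, 53.6 and 51.8 in WT livers 1 to 4. In N-LKO livers 1 to 4 they were 28.7, 61.4, 59.1 and 51.4. Again N-LKO liver 1 was the lowest of the 8 and the other N-LKO livers lay within the WT range. Mean levels were 3.31 ± 1.04 in WT against 3.26 ± 1.11 CPM in N-LKO livers (SD, n = 4 each), a log2 fold change of -0.037 (standard error 0.297). Fabp5 was the only one of the 9 genes with counts that were not whole, so part of its reads may be shared with near-identical copies. Fabp4, the relative typical of adipocytes and macrophages, was at 7.47 ± 0.608 and 8.97 ± 1.65 CPM (SD, n = 4 each) and was not called (edgeR adjusted p = 0.488). Fabp1, the liver form, was at 2388 ± 996 in WT against 1334 ± 411 CPM in N-LKO livers (SD, n = 4 each) and was not called (edgeR adjusted p = 0.251).

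Capg (ENSMUSG00000056737.14, chromosome 6, 72544391 to 72562983, plus strand) encodes an actin filament capping protein of macrophages. Its counts were 24, 6, 4 and 8 in WT livers 1 to 4. In N-LKO livers 1 to 4 they were 18, 8, 23 and 11. Only WT liver 1 reached the range of the N-LKO livers in CPM. Mean levels were 0.588 ± 0.469 in WT against 0.955 ± 0.431 CPM in N-LKO livers (SD, n = 4 each), a log2 fold change of 0.66 (standard error 0.503). It was 1.39 without WT liver 1 and 0.36 without N-LKO liver 3, so single livers decided its size. Gsn, the related actin-severing protein gelsolin, which is abundant in mesenchymal cells, rose from 6.51 ± 0.680 to 27.6 ± 6.38 CPM (SD, n = 4 each, log2 fold change 2.08, edgeR adjusted p = 0.000268). Flii and Svil of the same family were not called.

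Levels of different genes were compared per kilobase of exon, since a longer gene collects more reads. In WT livers the order was Cd9 at 8.46 CPM per kilobase, Tyrobp at 3.52, Atp6v0d2 at 1.31, Lgals3 at 1.07 and Fabp5 at 0.928. Capg followed at 0.233, Gpnmb at 0.0475, Mmp12 at 0.0384 and Trem2 at 0.0122 CPM per kilobase. The ranges of the WT livers did not overlap between Cd9 and Tyrobp, between Tyrobp and Atp6v0d2, between Fabp5 and Capg or between Capg and Gpnmb, and those of all other neighbours overlapped. In N-LKO livers Lgals3 stood above Atp6v0d2 at 2.02 CPM per kilobase, and Gpnmb at 0.553 and Mmp12 at 0.433 stood above Capg at 0.378. The ranges of Gpnmb, Mmp12 and Capg overlapped there, as did those of Cd9 and Tyrobp, of Atp6v0d2 and Fabp5, and of Fabp5 and Gpnmb, so the order within these pairs was within the spread between livers. Trem2 was lowest in both genotypes, at 0.115 CPM per kilobase in N-LKO livers.

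The 9 genes did not all vary together from liver to liver. After subtraction of each genotype's mean log2 CPM, Cd9 and Fabp5 had a Pearson correlation of 0.96 over the 8 livers, Tyrobp and Fabp5 of 0.86 and Tyrobp and Cd9 of 0.85. A further pair was Gpnmb and Capg, at 0.81. Gpnmb and Mmp12 differed by genotype to a like extent but within genotypes had a correlation of 0.054. Gpnmb and Trem2 were at -0.65, and Mmp12 and Cd9 at -0.71. These values describe 8 libraries, share depth and RNA input among genes, and for Trem2 rest on at most 13 counts per liver. In WT livers Gpnmb had 2 to 9 and Mmp12 3 to 7 counts. Counting error is large at such counts, so their low correlation does not show that they vary apart. N-LKO liver 1 shows the division, being the highest of its genotype for Mmp12 and Trem2 and the lowest for Tyrobp, Cd9 and Fabp5. N-LKO liver 3 was the highest of its genotype for 5 of the 9 genes, and WT liver 1 likewise.

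**Figure D2:**
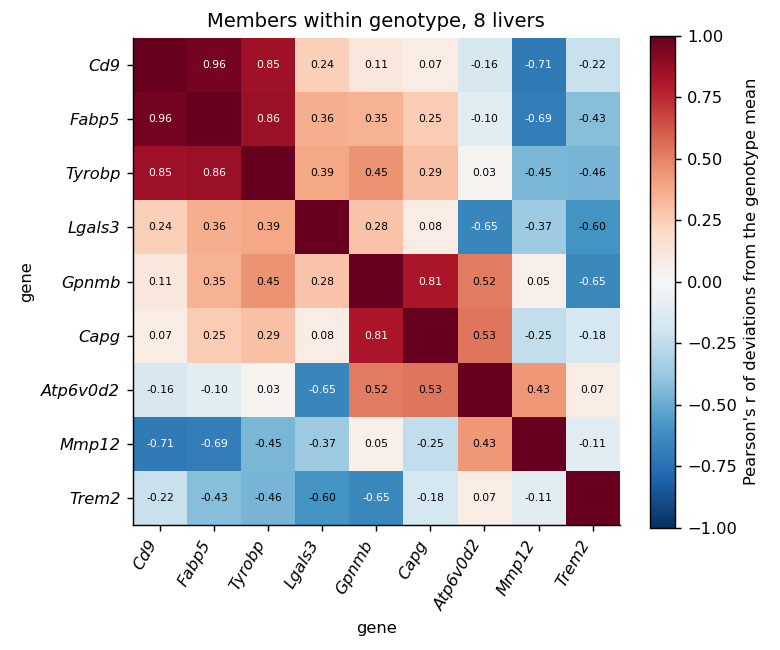
Pearson correlation of each pair of genes over 8 livers, computed on log2 CPM after subtraction of the genotype mean, coloured from -1 (blue) to 1 (red). Cd9, Fabp5 and Tyrobp form a block of 0.85 to 0.96, Gpnmb pairs with Capg at 0.81, and Mmp12 and Trem2 are near or below 0 with most others.

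Because the tissue was whole liver, a change in the number of macrophages and a change in RNA per macrophage cannot be told apart, and markers of macrophages as a whole were measured beside the 9 genes. Of 19 macrophage and leukocyte markers, 0 were called by edgeR (0 at an unadjusted p under 0.05, 0 called by DESeq2), with a median log2 fold change of -0.043. Their summed level was 180 to 325 CPM in WT livers and 240 to 322 CPM in N-LKO livers. Mpeg1, which encodes the pore-forming protein perforin-2, was at 38.5 ± 8.65 in WT against 45.9 ± 6.85 CPM in N-LKO livers (SD, n = 4 each). Lyz2, the macrophage lysozyme, was at 24.4 ± 8.33 and 29.4 ± 9.52 CPM (SD, n = 4 each). The markers thus overlapped between genotypes.

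Expressed as a percentage of this marker sum, Gpnmb was at 0.0706% to 0.148% in WT livers and 0.966% to 1.63% in N-LKO livers. Mmp12 was at 0.0494% to 0.148% and 0.947% to 1.41%. Trem2 was at 0% to 0.0495% and 0.144% to 0.264%. For these 3 genes the genotypes stayed apart on this scale. Lgals3 was at 0.445% to 1.31% and 1.28% to 1.46% and no longer separated the genotypes. Tyrobp, at 0.717% to 1.38% and 0.548% to 1.54%, overlapped on both scales. Within genotypes, the mean log2 level of the 19 markers had a correlation over the 8 livers of 0.91 with Gpnmb, 0.67 with Capg and 0.59 with Tyrobp. It was -0.091 with Mmp12 and -0.58 with Trem2. In WT livers Gpnmb, Mmp12 and Trem2 had at most 9, 7 and 2 counts, so counting error limits these correlations.

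**Figure D3:**
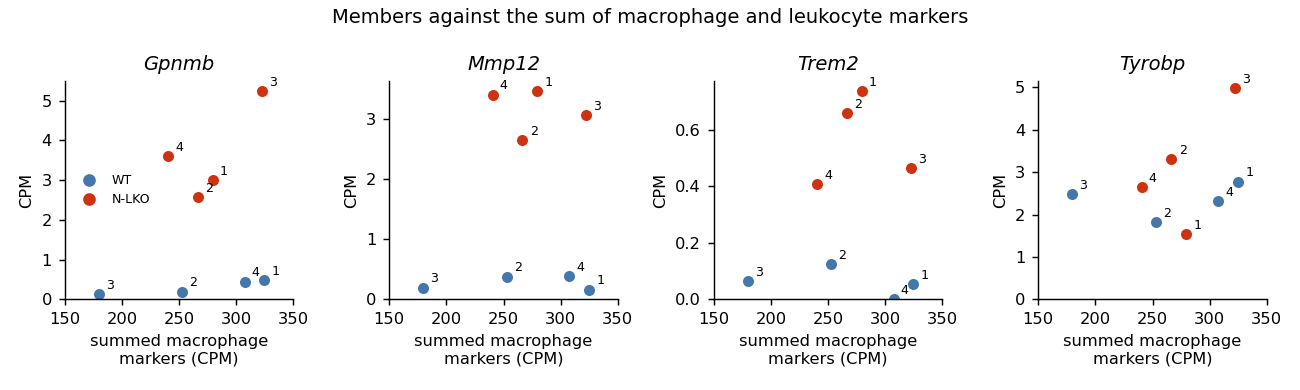
Level of 4 genes in CPM (linear axis from 0) against the summed CPM of 19 macrophage and leukocyte markers, with 1 numbered point per liver, blue for WT and red for N-LKO. The marker sums of the genotypes overlap, at 180 to 325 and 240 to 322 CPM, while Gpnmb, Mmp12 and Trem2 are higher in each N-LKO liver and Tyrobp is not.

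Of the cell types that could hold these genes, Kupffer cells and monocytes had 1 called marker each. Among 12 Kupffer cell markers Cd163, the haemoglobin scavenger receptor, fell from 15.7 ± 5.97 to 5.20 ± 1.12 CPM (SD, n = 4 each) by edgeR's test (log2 fold change -1.60, adjusted p = 0.0167). The call of Cd163 was lost without N-LKO liver 3 or WT liver 4 (edgeR adjusted p = 0.0597 and 0.0535). The other 11 were not called. Of all 12, 2 were at an unadjusted p under 0.05 by edgeR, 3 had log2 fold changes above 0, and the median was -0.14. The summed level of all 12 was 204 to 319 CPM in WT and 230 to 286 CPM in N-LKO livers. Slc40a1 was the largest part of that sum, at 96.1 ± 19.3 in WT against 101 ± 4.07 CPM in N-LKO livers (SD, n = 4 each). Timd4, the phosphatidylserine receptor of resident Kupffer cells and named here after its values were seen, was at 4.97 ± 2.42 and 3.07 ± 0.658 CPM (SD, n = 4 each) and was not called (edgeR adjusted p = 0.389). Among 7 monocyte markers tested Cx3cr1, the fractalkine receptor, rose from 0.253 ± 0.179 to 2.10 ± 1.21 CPM (SD, n = 4 each, log2 fold change 2.97, edgeR adjusted p = 0.0499). Cx3cr1 had 7, 0, 4 and 7 counts in WT livers and passed the filter on low counts only through its N-LKO counts. Its call is therefore given as a description. That call lay at the threshold, and of the 8 fits that left out a liver only the one without N-LKO liver 1 kept it (highest edgeR adjusted p 0.151). With all livers it was also lost under library totals (0.0628), limma-voom (0.117) and the replicate block (0.128), all adjusted p. The 11 monocyte markers summed to 7.63 to 16.0 CPM in WT and 10.3 to 19.0 CPM in N-LKO livers.

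Most tested markers of cholangiocytes and fibroblasts had log2 fold changes above 0, and their part in the levels of the 9 genes was not tested. Summed cholangiocyte markers were at 39.3 to 67.8 CPM in WT and 75.1 to 162 CPM in N-LKO livers. Of 7 tested, Spp1 and Epcam rose by edgeR's test, although under the alternatives the number called ranged from 0 to 3. Of these 7, 4 were at an unadjusted p under 0.05 by edgeR, 6 had log2 fold changes above 0, and the median was 1.01. Spp1, which is also in the list of other lipid-associated macrophage genes, made up much of that sum, and without it, a choice made after seeing the values, the sums were 23.2 to 35.3 CPM in WT and 34.7 to 57.1 CPM in N-LKO livers and overlapped. The keratins of bile ducts Krt23, Krt7 and Krt19, and Sox9, were named here after their values were seen. Krt23 was at 2.75 ± 1.33 in WT against 1.56 ± 0.969 CPM in N-LKO livers (SD, n = 4 each) and was not called (edgeR adjusted p = 0.506). Krt7, with too few counts to be tested, was at 0.362 ± 0.0802 and 0.357 ± 0.185 CPM (SD, n = 4 each). Krt19 was higher without overlap, at 0.619 ± 0.169 and 0.939 ± 0.121 CPM (SD, n = 4 each), and was not called (edgeR adjusted p = 0.428). Sox9 was at 6.74 ± 2.21 and 13.5 ± 4.37 CPM (SD, n = 4 each) and was not called (edgeR adjusted p = 0.105). Summed fibroblast and matrix genes were at 162 to 222 and 245 to 347 CPM, with Col1a1, Lum, Pdgfra and Eln called higher and Postn lower among 11 tested. With single livers left out, Lum and Pdgfra kept their calls in all 8 fits, whereas Postn lost its call in 2 fits, Eln in 3, Epcam in 6 and Col1a1 in 7. With all livers, Epcam lost its call with limma-voom (adjusted p = 0.0621), and Col1a1 with limma-voom, library totals, the replicate block and at least 10 counts in every liver (adjusted p = 0.0555 to 0.0896). N-LKO liver 3, the highest for Gpnmb, Tyrobp, Lgals3, Atp6v0d2 and Capg in its genotype, was also the highest in both sums. Hepatocyte, sinusoidal endothelial, stellate, dendritic and lymphocyte marker lists had 0 genes called by edgeR, with 0, 0, 3, 0 and 1 at an unadjusted p under 0.05. DESeq2 called at most 2 genes in any of these lists. Of the neutrophil markers only S100a9 could be tested, and it was not called (edgeR adjusted p = 0.604).

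Of 39 other genes of lipid-associated macrophages in the table, 35 were tested. Of these, 3 rose by edgeR's test and 0 fell (6 called by DESeq2), where 0.823% of all genes tested were called higher. By edgeR 10 of the 35 were at an unadjusted p under 0.05. Of those 10, Lipa, Ctsz and Creg1, named here after their values were seen, were lower in N-LKO livers and the others higher. The median log2 fold change of the 35 was 0.13, and 24 were above 0. Emp1, a tetraspan membrane protein, rose from 1.38 ± 0.282 to 5.69 ± 1.32 CPM (SD, n = 4 each, log2 fold change 2.04, edgeR adjusted p = 0.00162). Spp1, which encodes osteopontin and is also abundant in cholangiocytes, rose from 23.9 ± 6.99 to 68.1 ± 28.1 CPM (SD, n = 4 each, log2 fold change 1.51, edgeR adjusted p = 0.0353). Cd36, a fatty acid transporter that hepatocytes express too, rose from 42.5 ± 6.70 to 64.5 ± 3.41 CPM (SD, n = 4 each, log2 fold change 0.60, edgeR adjusted p = 0.0230). Emp1 kept its call when any liver was left out, whereas Spp1 kept it only without N-LKO liver 1 or WT liver 3 and Cd36 only without N-LKO liver 4 or WT liver 4 (highest edgeR adjusted p 0.0964 and 0.0677). With all livers Spp1 also lost its call under library totals (0.0553) and limma-voom (0.0520), both adjusted p. Apoe, Fth1 and Ctsl, which had the largest CPM of the list, were not called. Apoe, the apolipoprotein that hepatocytes make in bulk, was at 8579 ± 662 and 8067 ± 882 CPM (SD, n = 4 each).

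**Figure D4:**
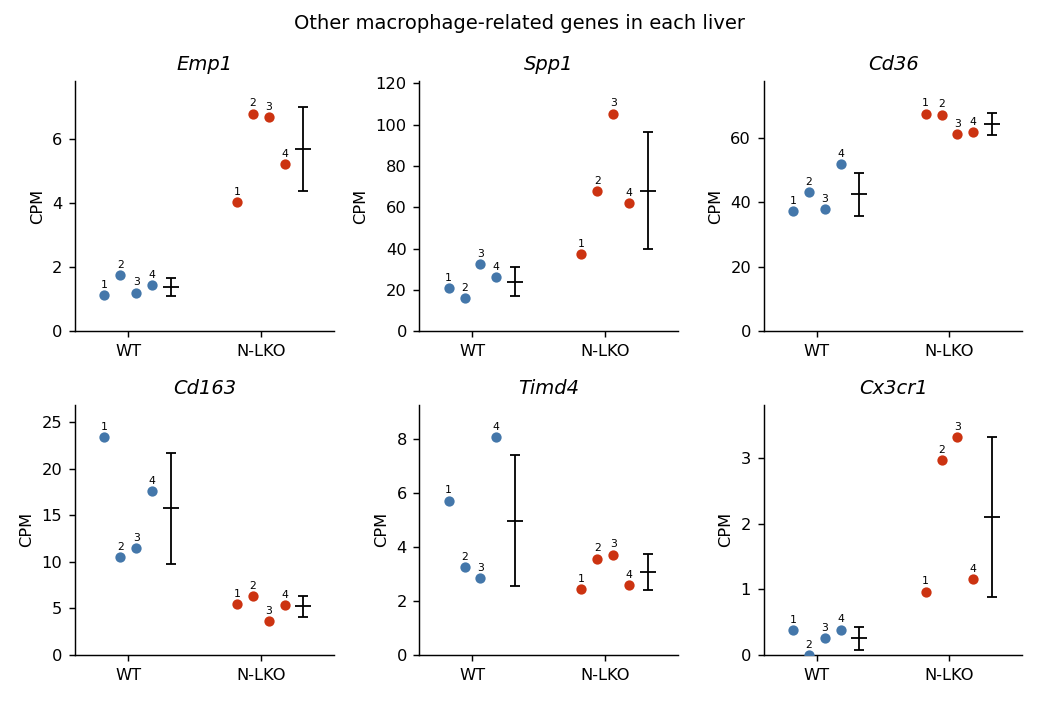
Level in CPM (linear axis from 0) of Emp1, Spp1 and Cd36, which are other genes of lipid-associated macrophages, and of the Kupffer cell markers Cd163 and Timd4 and the monocyte marker Cx3cr1. Points are numbered livers, blue for WT and red for N-LKO, with the group mean and SD (n = 4) beside them. Emp1, Spp1, Cd36 and Cx3cr1 are higher and Cd163 lower in each N-LKO liver, and Timd4 overlaps.

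**Figure D5:**
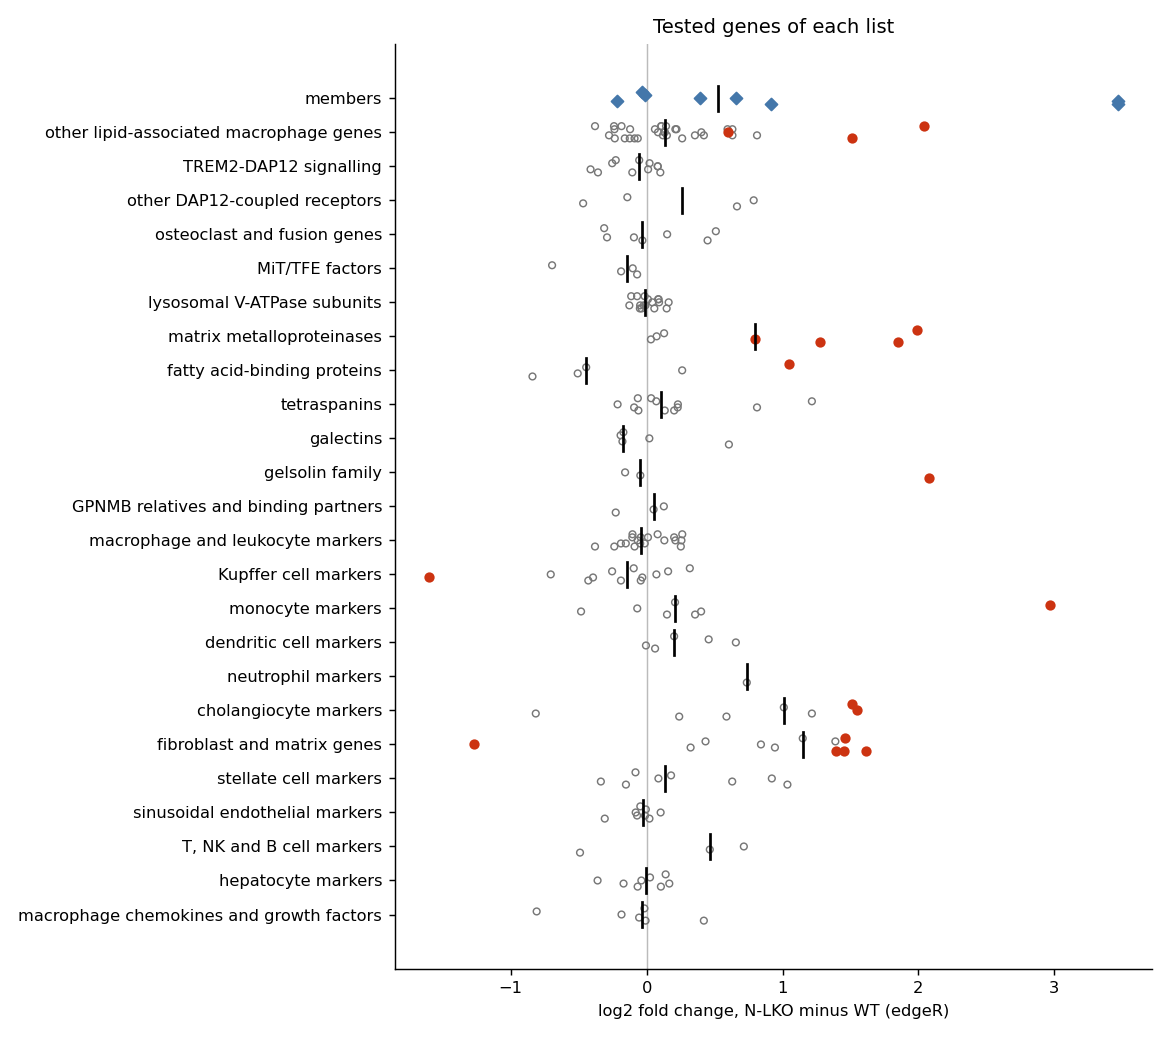
Log2 fold change, N-LKO minus WT, of every tested gene in each gene list (horizontal axis, from edgeR). Filled red points are called at an adjusted p under 0.05, open points are not, and the black bar is the median of the list. The called genes include Mmp23 and Cx3cr1, which passed the filter on low counts only through their N-LKO counts. Blue diamonds are the 8 members with a fitted value, which were chosen partly on this contrast and carry no call. Gpnmb and Mmp12 lie furthest to the right at 3.47, while TREM2-DAP12 signalling genes, V-ATPase subunits and macrophage markers are centred near 0.

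No tested chemokine or growth factor of macrophages was called. Of 10 with counts, 6 were tested and 0 passed edgeR's test (0 at an unadjusted p under 0.05, 0 called by DESeq2). Their median log2 fold change was -0.036. Ccl2, Ccl3, Il34 and Cx3cl1 had too few counts to be tested, and all overlapped between genotypes. Cx3cl1, the ligand of Cx3cr1 and named here after its values were seen, had 7, 8, 3 and 3 counts in WT and 8, 22, 22 and 12 in N-LKO livers. Ccl9 was at 27.9 ± 3.02 in WT against 26.8 ± 1.93 CPM in N-LKO livers (SD, n = 4 each). Csf1, the growth factor that macrophages need, was at 6.50 ± 1.87 and 5.75 ± 1.70 CPM (SD, n = 4 each).

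The genes whose log2 CPM over the 8 livers followed Gpnmb most closely were Colec12, Mup-ps13, Cntfr, Shc2 and Gm20186, with Pearson correlations of 0.98, 0.98, 0.98, 0.98 and 0.97. Much of that likeness is the difference between genotypes, and after subtraction of the genotype means the correlations with Gpnmb were 0.75, 0.73, 0.75, 0.65 and 0.69. Shc2, a signalling adaptor, had 0 to 2 counts in WT and 21 to 30 counts in N-LKO livers. Colec12, a scavenger receptor, went from 43.2 ± 1.92 to 60.2 ± 2.31 CPM (SD, n = 4 each). Mup-ps13 belongs to the near-identical major urinary protein genes, so its counts, 2 to 5 in WT and 13 to 20.9 in N-LKO livers, are uncertain. These 5 genes were picked for their likeness, so no test of it was made.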

How the data were processed

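Livers of 4 WT and 4 N-LKO mice were grouped by labelled genotype and numbered as in their titles. The authors deposited expected counts, that is estimates of reads per gene that can be fractional, unscaled for depth. Values with decimals occurred in 51.2% of genes. The study's methods name rRNA removal, a small RNA library kit, TopHat2 and cuffdiff, whereas the submitters' processing notes name STAR, Partek and mm9. The deposited gene coordinates matched GENCODE M21 of GRCm38 for 19006 of 19642 genes. The program that gave the counts, and its use of strand, are not given in the sources used here.

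Counts were rounded, filtered with filterByExpr (minimum count 10, minimum total 15), scaled by TMM and fitted by genotype alone with the quasi-likelihood functions of edgeR 4.0.16 in R 4.3.3. P-values were adjusted by Benjamini-Hochberg over 14214 genes and called under 0.05. Log2 CPM used a prior count of 2, and standard errors came from the log2 fold change and the F statistic. Ratios of summed counts have exact conditional 95% intervals, which leave out the spread between mice. Alternatives were DESeq2 1.42.0, limma-voom (limma 3.58.1), RLE scaling, library totals, other filters, a replicate block, a prior count of 0.5 and each liver left out. Fits were tested on simulated data. Replicate libraries all differed by more than counting noise.

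The 9 genes, the 24 other gene lists and the tests were chosen with earlier results of these data known. Named beside the 9 genes are the called genes and up to 3 of the most abundant of a list, relatives of a member, and the 5 genes most correlated with Gpnmb, and others are marked as chosen after their values were seen. The authors' other experiments were not analysed here. Results for some single genes of the lists are not reported here.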

Additional observations from a re-analysis of the deposited data

Results flagged for a closer look

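Among 54 sets of 4 livers (the log2 CPM of a gene in a genotype), 2 had a liver far from the other 3 by Dixon's criterion, where chance gives 2.7. Fabp5 in N-LKO liver 1 was at a log2 CPM of 0.82, against 1.84 to 2.05 in the other 3. Nus1 in WT liver 1 was at a log2 CPM of 6.36, against 6.49 to 6.50 in the other 3. Neither value was tested further.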

How the results depend on the processing

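The log2 fold changes of Gpnmb, Mmp12, Lgals3, Tyrobp and Capg kept their direction under every alternative in which they could be fitted. Tyrobp and Capg did so although their genotypes overlapped. Genes without overlap between genotypes can hardly change sign in this way, and some genes were chosen for rising, so nothing is read from it. Cd9, Fabp5 and Atp6v0d2 lay near 0 and changed sign with single livers left out. The count of 148 genes called became 371 with DESeq2 and 98 with at least 10 counts in every liver, a filter that drops Gpnmb, Mmp12, Trem2 and Capg. It was 71 to 173 with each liver left out, lowest without WT liver 4. Of 198 genes in the other lists 17 were called, 26 with DESeq2 and 9 to 15 with each liver left out. The 17 include Mmp23 and Cx3cr1, which passed the filter on low counts only through their N-LKO counts. The number of the 9 genes that were higher without overlap was 4, and 4 to 5 with each liver left out. With all livers 4.2% of all genes tested were higher without overlap, and the share with a liver left out is not given here. Nothing is read from these counts, since the comparison helped to choose the genes. Livers with the same title number did not deviate together over all genes (correlations of 0.062, -0.085, 0.04 and 0.043). Whether mice were paired, by these numbers or otherwise, cannot be told from such values. With the replicate block 131 genes were called. The cause of these shifts was not tested. Trem2 passed no leave-one-out filter and rests on 40 counts in all, and depth limits statements on genes near 3 counts.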
